A study of Aspergillus nidulans with 8 samples.

Results

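The genes described here are the 76 of 10550 genes on an Aspergillus nidulans array whose signal was higher with cadmium chloride (CdCl2) than without it under both strain labels of the study. Members were selected on the measured CdCl2 and untreated signals. A gene was taken if its CdCl2 minus untreated change was 0.58 or more on the log2 scale, or 1.50-fold, on the arrays labelled deletion and also on those labelled reference. At least 2 of its 4 spots also had to be well above background on each CdCl2 array. Of 7865 genes that met the background requirement, the 76 were 0.966%. Because those signals chose the genes, their CdCl2 changes are a description and carry no test.

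Cadmium ions bind the thiol groups of cysteine residues, displace zinc and other metals from proteins and disturb protein folding. Cells are known to meet this with chaperones, with glutathione and other thiols that bind the metal, and with transporters that move it out of the cytosol. In fungi, misfolded proteins in the endoplasmic reticulum (ER) induce the ER chaperone BipA and protein disulfide isomerase through the unfolded protein response. AtfA is a bZIP transcription factor of the fungal stress response.

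Mycelia of A. nidulans, a filamentous fungus, were grown in submerged culture for 16 h and then kept for 0.5 h with 2 mM amphotericin B (AmB), 0.2 mM CdCl2 or 10 mM Congo Red, or left untreated. AmB is a polyene that binds ergosterol, and Congo Red is a dye that binds cell wall polymers. Doses and their units are those of the labels and were not checked elsewhere. The strain labelled deletion, TNJ 92.4, has the genotype pyrG89, AfupyrG+, pyroA4, DatfA::pyroA and veA+, and the strain labelled reference, THS30.3, is pyrG89, AfupyrG+, pyroA+ and veA+. Both thus carry pyrG89, the Aspergillus fumigatus pyrG gene and veA+. Each of the 8 combinations of strain label and condition had 1 single-colour array, which held total RNA pooled from 3 cultures. With so few arrays the precision is limited, and p-values measure how far the strain labels depart from additivity, not the spread between cultures. In RNA of whole mycelium, fewer cells of a type and less RNA per cell cannot be told apart.

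The labels of the arrays are in doubt. The probe of the targeted gene atfA was bright on the 4 arrays labelled deletion (processed signal 3271 to 9708), while on the 4 labelled reference it never rose well above background (2.30 to 3.09). In the value table that the authors also deposited, atfA lay at 6.19 to 6.26 in the columns titled deletion and at 13.66 to 14.6 in those titled reference, on the log2 scale. Across genes, each column of that table was most like an array of the other strain label. The column titled reference untreated was most like the CdCl2 array labelled deletion (r = 0.971, against 0.969 for the untreated array labelled deletion). The column titled reference CdCl2 was most like the untreated array labelled deletion (r = 0.974). Strains are therefore given as "labelled deletion" and "labelled reference" throughout, and every direction between them is one between labels that atfA goes against. The treatment labels of the untreated and CdCl2 arrays labelled deletion disagree with the value table, so the counts of AmB, Congo Red and label calls are also given without them. The CdCl2 changes labelled deletion rest wholly on these arrays and cannot be given without them.

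This touches all 76 genes. In the value table every one of them was higher with CdCl2 in the columns titled deletion, by 0.21 to 5.17 (median 1.12). In the columns titled reference every one was lower with CdCl2, at -1.90 to -0.09 (median -0.65), and 43 lay at -0.58 or less. The arrays labelled deletion gave the opposite direction, with changes of 0.58 to 3.01. The value table's scale is log2, no source used here states its normalization, and its treatment direction for the arrays labelled deletion is opposed to that of the scanner files. Over all genes, the change titled reference and the change labelled deletion had r = -0.80, and the change titled deletion and that labelled reference had r = 0.88. By the table's titles 13 genes met the threshold, and none (0) of the 76 was among them. Gaps between a title and a scanner label of the same strain name set unlike arrays side by side, since each column was most like an array of the other label. Among the wide gaps of this kind was that of AN2110, at -1.60 titled reference against 5.90 labelled reference. AN2576, at -1.35 titled reference, and AN8342, at -0.40, were higher with CdCl2 labelled reference by at least 63.3-fold and 28.0-fold, bounds against untreated signals not above background. Under the other title wide gaps were those of AN2110, at 5.17 titled deletion against 1.70 labelled deletion, AN9320, at 2.94 against 0.63, and AN11209, at 2.92 against 0.86. On the arrays labelled reference, which the columns titled deletion were most like, the changes of AN2110, AN9320 and AN11209 were 5.90, 4.155 and 3.455. A rise with CdCl2 under both labels is thus a statement about the scanner files, while a rise on the pair labelled reference is in both sources.

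**Figure D1:**
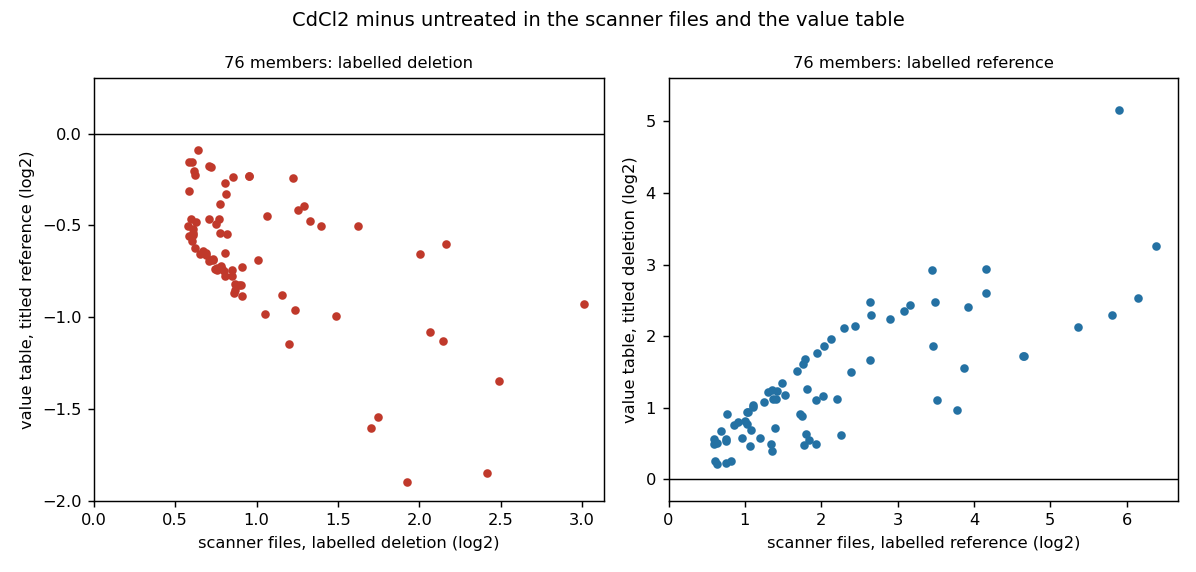
CdCl2 minus untreated change (log2) of the 76 genes in the scanner files (x axis) and in the deposited value table (y axis), 1 point a gene. Left, scanner arrays labelled deletion against columns titled reference: all 76 points lie below 0 on the y axis. Right, arrays labelled reference against columns titled deletion: all 76 lie above 0.

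All levels below are log2 signals relative to the 75th percentile of their own array, so a level below 0 is dimmer than that percentile. On the arrays labelled deletion the CdCl2 change had a median of 0.81, and 23 genes were at 2-fold or more and 7 at 4-fold or more. On the arrays labelled reference it ran from 0.59 to 6.39 with a median of 1.77, and 62 genes were past 2-fold and 30 past 4-fold. Both highest values, 3.01 for AN3563 labelled deletion and 6.39 for AN2576 labelled reference, were taken against untreated signals not above background and are not exact. Among genes bright on the untreated array of the label, the highest were 2.49 for AN2576 labelled deletion and 5.90 for AN2110 labelled reference. The medians of all genes that met the background requirement were -0.05 labelled deletion and -0.03 labelled reference. Considered alone, 306 genes (3.89%) reached 0.58 on the arrays labelled deletion and 734 (9.33%) on those labelled reference. Within the 76, 22 were at 2-fold or more under both labels and 13 under 2-fold under both. The change was larger on the arrays labelled reference for 68 genes and on those labelled deletion for 8, with a median difference, labelled deletion minus labelled reference, of -0.87. Only 13 genes had changes within 0.25 of each other. Over all genes the changes under the labels had r = 0.05, computed across genes, which are not independent replicates. With outlier spots left out, the change was over 3 times the standard error between spots of a probe in 69 genes labelled deletion and in 75 labelled reference. That error covers the array surface and not the cultures. In limma 0 of 8636 genes tested passed for CdCl2 over both labels (0.0%), with 114 at an unadjusted p under 0.05.

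**Figure D2:**
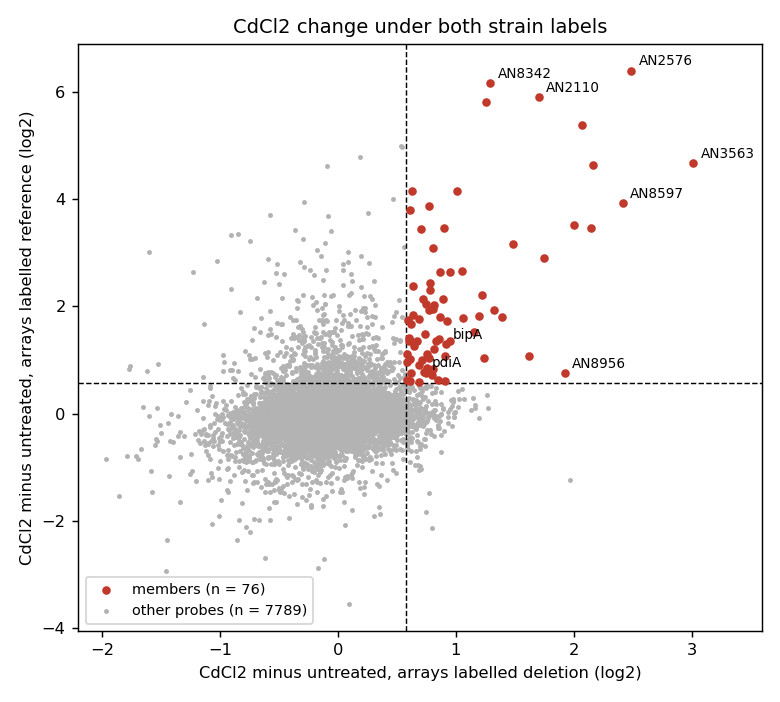
CdCl2 minus untreated change (log2) on the arrays labelled deletion (x axis) and labelled reference (y axis) for all genes well above background on both CdCl2 arrays. The dashed lines mark the threshold of 0.58. The 76 chosen genes fill the upper right corner and reach 3.01 on the x axis and 6.39 on the y axis, values taken against untreated signals not above background.

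Just inside the threshold on the lower of their changes were AN10425 at 0.58, AN2575 at 0.59 and AN2432 at 0.59. Just outside it were AN5426 at 0.579, AN11895 at 0.57 and AN5226 at 0.57. The boundary therefore passes between genes whose changes differ by less than the median standard error between spots, 0.081 labelled deletion and 0.063 labelled reference.

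Only 2 of the 76 have a gene symbol in the RefSeq table, and both act in protein folding in the ER. The first was bipA (AN2062), the Hsp70 chaperone of the ER. On the arrays labelled deletion its level was -0.29 with AmB, 2.03 with CdCl2, 2.29 with Congo Red and 1.12 untreated. On those labelled reference it was 0.75 with AmB, 3.80 with CdCl2, 1.54 with Congo Red and 2.50 untreated. AmB gave the lowest bipA level under both labels, and CdCl2 the highest labelled reference, while Congo Red gave the highest labelled deletion. The CdCl2 change was 0.91 labelled deletion and 1.30 labelled reference. In the value table it was 1.21 titled deletion and -0.88 titled reference.

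The second was pdiA (AN7436), protein disulfide isomerase, which forms and rearranges disulfide bonds in secreted proteins. On the arrays labelled deletion pdiA lay at 3.19 with AmB, 4.62 with CdCl2, 4.63 with Congo Red and 3.89 untreated. On those labelled reference it lay at 2.06 with AmB, 5.69 with CdCl2, 4.21 with Congo Red and 4.92 untreated. Its order of arrays was that of bipA, lowest with AmB under both labels and highest with CdCl2 labelled reference. The CdCl2 changes of pdiA were nearly equal, 0.73 labelled deletion and 0.77 labelled reference, and the value table gave 0.91 titled deletion and -0.69 titled reference.

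The chaperone and folding genes with a symbol were compared as a list. Of 12 on the array, all tested and bright on all 8 arrays, the CdCl2 change was above 0 for 6 labelled deletion and for 12 labelled reference. It reached 0.58 in 2 labelled deletion, which were bipA and pdiA, and in 11 labelled reference. The list medians were -0.06 labelled deletion (0.07 with median scaling) and 1.37 labelled reference, where the medians over all tested genes were -0.06 and -0.03. hsp90, a cytosolic chaperone, had changes of 0.15 labelled deletion and 1.94 labelled reference. fes1, a nucleotide exchange factor of Hsp70, stood at -0.50 labelled deletion and 2.42 labelled reference, and the co-chaperone gene sti1 at -0.71 and 1.60. clxA, the calnexin of the ER, had 0.32 labelled deletion and 1.28 labelled reference. hacA, the gene of the transcription factor of the unfolded protein response, differed little, at -0.15 labelled deletion and 0.22 labelled reference. None (0) of the 12 passed limma for CdCl2, where 0.0% of all genes did, and the labels themselves were not tested against each other for this change.

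**Figure D3:**
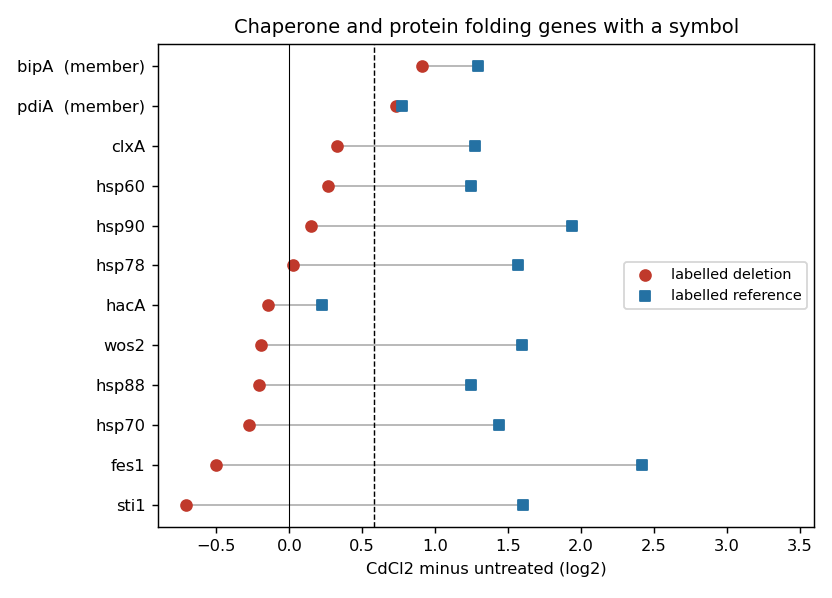
CdCl2 minus untreated change (log2, x axis) of the 12 chaperone and folding genes with a symbol, circles for arrays labelled deletion and squares for arrays labelled reference, joined by gene. The dashed line marks 0.58. bipA and pdiA are the 2 genes with both points to its right.

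The lists were matched by gene symbol, and the only 2 members with a symbol were bipA and pdiA. A member without a symbol could thus be placed in no list, and the other lists do not show which kinds of gene are among the members. Their coverage was also low, with 4 genes on the array for 53 sulfur and glutathione symbols and 7 for 56 metal transport symbols. Of 18 ubiquitin and proteasome genes, 2 were above 0 labelled deletion (11 with median scaling) and 18 labelled reference, with medians of -0.11 (0.02 with median scaling) and 0.27. cdc48, the gene of the ATPase that extracts ubiquitinated proteins, stood at -0.44 labelled deletion and 1.13 labelled reference. The 4 genes of sulfur assimilation, cysteine and glutathione had medians of -0.20 labelled deletion and 0.71 labelled reference. Of these, sC, ATP sulfurylase, had 0.47 and 1.32 and was the only gene above 0 labelled deletion. The others, met16, metG and glr1, were at -1.07, -0.09 and -0.31 labelled deletion and at 0.325, 0.87 and 0.55 labelled reference. Among 7 metal transport genes the medians were -0.05 labelled deletion (0.08 with median scaling) and -0.15 labelled reference. Their zinc transporter genes zrfC, zrfB and zrfA were at -0.45, 0.01 and -0.12 labelled deletion and at -1.51, -1.46 and 0.84 labelled reference. The 11 iron and siderophore genes lay lower, with medians of -0.37 labelled deletion and -0.33 labelled reference. The 5 redox defence genes had medians of -0.08 labelled deletion (0.09 with median scaling) and 0.26 labelled reference, and the 5 drug transporter genes 0.04 and 0.36. No gene of these lists passed limma for CdCl2.

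The 74 genes without a symbol held the largest changes, and no role is given for them. AN2576 lay at -6.10 with AmB, -3.61 with CdCl2, -6.31 with Congo Red and -6.10 untreated on the arrays labelled deletion. On those labelled reference it lay at -4.42 with AmB, -1.67 with CdCl2, -7.28 with Congo Red and -8.06 untreated. CdCl2 gave its highest level under both labels, and the AN2576 probe was not well above background on the AmB array labelled deletion or on the Congo Red and untreated arrays labelled reference. The change was 2.49 labelled deletion, and labelled reference it was at least 63.3-fold, a bound set by the faintest signal that was still above background.

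AN2110 was well above background on all 8 arrays, so its change is not a bound. On the arrays labelled deletion its level was -3.60 with AmB, 0.67 with CdCl2, -2.23 with Congo Red and -1.03 untreated. On those labelled reference it was -3.30 with AmB, 2.64 with CdCl2, -2.10 with Congo Red and -3.26 untreated. Both CdCl2 arrays stood above the 6 others, and the untreated arrays differed by more than the AmB or Congo Red arrays did. The CdCl2 change of AN2110 was 1.70 labelled deletion and 5.90 labelled reference, with standard errors between spots of 0.04 and 0.05.

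AN8597 was above background on every array except the AmB pair. It lay at -5.38 with AmB, -1.43 with CdCl2, -4.09 with Congo Red and -3.85 untreated on the arrays labelled deletion. On those labelled reference AN8597 lay at -5.93 with AmB, -1.78 with CdCl2, -5.75 with Congo Red and -5.70 untreated. CdCl2 was again highest under both labels, with changes of 2.42 labelled deletion and 3.92 labelled reference. Its CdCl2 levels under the labels differed by 0.35 and its untreated levels by 1.85.

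AN11090, bright on all 8 arrays, was high with AmB as well. Its level was -3.73 with AmB, -4.13 with CdCl2, -6.24 with Congo Red and -6.28 untreated labelled deletion. Labelled reference AN11090 stood at -2.89 with AmB, -2.84 with CdCl2, -5.73 with Congo Red and -6.30 untreated. The AmB and CdCl2 arrays did not overlap with the Congo Red and untreated arrays. The CdCl2 changes of AN11090 were 2.14 labelled deletion and 3.46 labelled reference.

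The other 6 of the 10 largest mean changes rest on dim untreated signals. AN3563 and AN2558 were above background on the CdCl2 arrays alone. AN3563 was at least 4.09-fold higher with CdCl2 labelled deletion and 9.91-fold labelled reference, and AN2558 at least 2.20-fold and 10.8-fold. AN8342 was 2.45-fold higher labelled deletion and at least 28.0-fold labelled reference. AN3883, which was also bright on both AmB arrays, was 2.39-fold and at least 24.5-fold higher, and AN6936 4.01-fold and at least 6.01-fold. The folds labelled deletion of AN8342, AN3883 and AN6936 are measured changes and not bounds. They were taken against untreated signals not above background and are not exact. AN9372 had a change of 2.07 labelled deletion and was at least 15.6-fold higher labelled reference. These folds and bounds hold for the processed signal alone. With normexp background correction the lower of the changes under the labels was -0.055 for AN8342 and -0.037 for AN3883, which turns their direction. It was 0.28 for AN3563, 0.027 for AN2558, 0.18 for AN6936 and 0.67 for AN9372, and among the brighter genes 0.99 for AN2576 and 0.72 for AN11090.

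**Figure D4:**
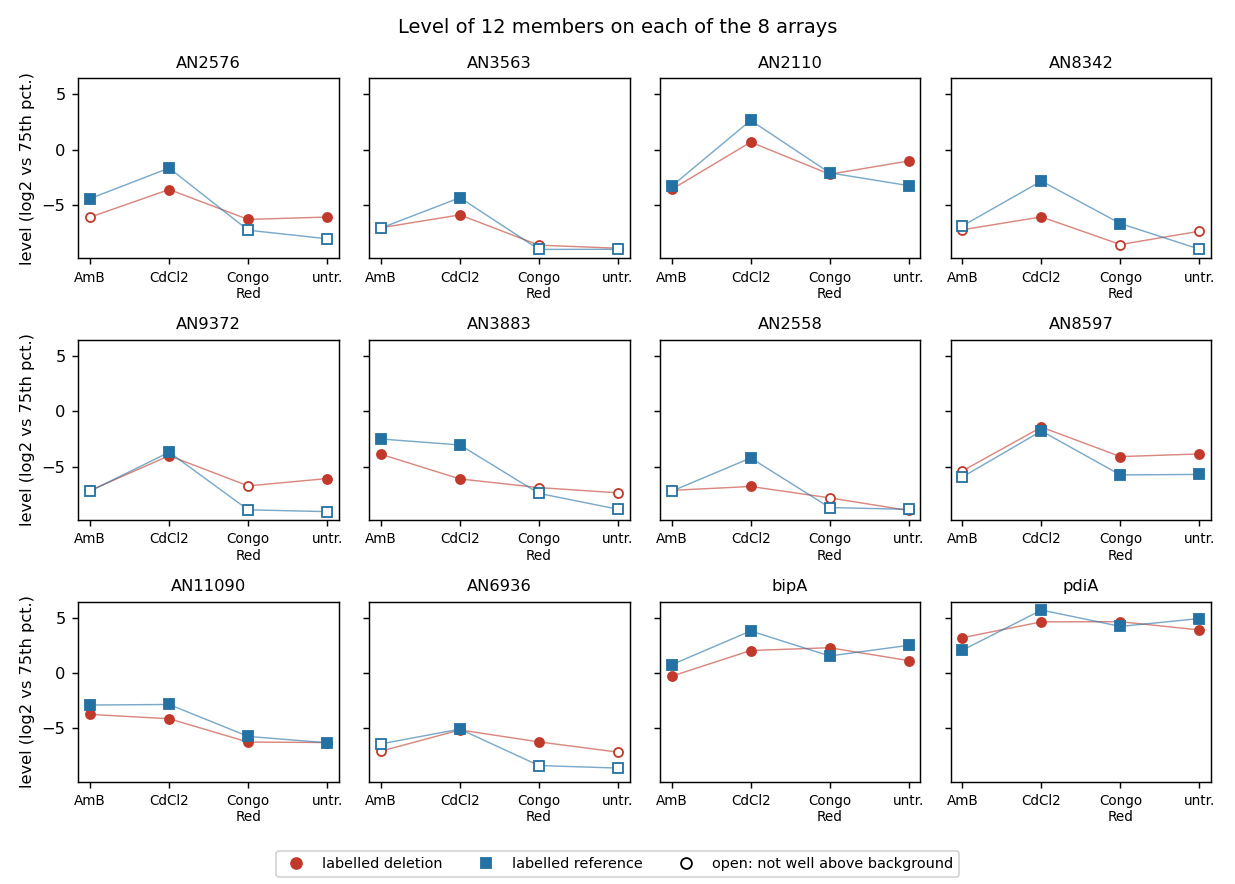
Level (log2 signal relative to the array's 75th percentile, y axis) of the 10 genes with the largest mean CdCl2 change and of bipA and pdiA on the AmB, CdCl2, Congo Red and untreated arrays, circles for labelled deletion and squares for labelled reference. Open symbols were not well above background, and the lines only join the arrays of 1 label. AN2110 is highest on both CdCl2 arrays, at 0.67 and 2.64, while bipA and pdiA are lowest on both AmB arrays.

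Of the 76, 42 were well above background on all 8 arrays, 50 on both untreated arrays, 15 on 1 of them and 11 on neither. On the untreated array, 22 were not above background labelled deletion and 15 labelled reference, and 4 genes were above background on the CdCl2 arrays only. For the 11 dark on both untreated arrays, each untreated signal was set to the higher of the faintest above background and its own. The mean fold over both labels was then 1.97 to 8.29. It is a bound only where the faintest signal was the higher, and for AN5565, at 1.97, it was the measured fold. With all genes dark on the untreated array of a label set in this way, the median change stayed at 0.81 labelled deletion and 1.77 labelled reference. Among genes bright on the untreated array it was 0.78 labelled deletion (54 genes) and 1.42 labelled reference (61 genes). The untreated levels had medians of -3.88 labelled deletion and -4.12 labelled reference, where all tested genes had -1.34 and -1.42. With CdCl2 the medians of the 76 were -2.99 labelled deletion and -1.73 labelled reference.

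Some of the genes are neighbours in the RefSeq gene order of assembly ASM1142v1. Of 75 that could be placed, 15 lay within 5 gene places of another, in 6 runs, and 9 lay directly beside another. The same counts for other sets of 75 genes were not made, so closeness is not read as a trait of the set. The genes of these runs are named for their place. In the longest run AN8340, AN8341, AN8342 and AN8344 were members and fkbp3, between the last pair, was not. Their CdCl2 changes labelled deletion were 1.01, 1.75, 1.29 and 0.75, and labelled reference they were 4.15, 2.90, 6.15 and 2.04, where AN8342 was not above background untreated under either label. fkbp3 stood at 0.28 labelled deletion and 0.30 labelled reference and was bright on all 8 arrays, so the run was interrupted by a measured gene. AN3888, AN3883 and AN3882 formed a run, with 4 genes between the first pair that were not above background on any array. AN8597 and AN11090 were separated by 2 genes dark on all 8 arrays. AN2575 and AN2576 were direct neighbours with unlike changes, 0.58 and 2.49 labelled deletion and 0.63 and 6.39 labelled reference. The remaining runs were AN10331 with AN10332 and AN0901 with AN0899.

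CdCl2 gave the highest of the 4 levels under both labels in 25 of the 76, where 5.92% of all tested genes did so, a pattern the choice of genes favours. AmB was highest under both labels in 26 of the 76 (28.8% of all tested genes), and Congo Red in 0 (5.87%).

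The AmB comparison asked whether these genes also respond to a membrane stress. It uses the same untreated arrays as the rule, so a low untreated signal raises both changes, and no overlap between them is read as a result. In limma 17 of the 76 passed as higher with AmB, or 22.4%, where 8.65% of all tested genes did, and 3 as lower, or 3.95%, beside 3.15%. The fitted AmB change had a median of 1.13 over the 76, beside -0.01 over all tested genes, and was above 0 in 57. On single arrays 35 reached 0.58 under both labels (20.3% of tested genes) and 9 lay at -0.58 or less (15.8%).

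AN3125 had the largest AmB response. It lay at 6.75 with AmB, -1.68 with CdCl2, -1.51 with Congo Red and -2.39 untreated on the arrays labelled deletion. On those labelled reference AN3125 lay at 8.52 with AmB, -1.05 with CdCl2, -0.30 with Congo Red and -2.06 untreated. The AmB arrays stood far above all others, and the change was 9.86 ± 0.44 (mean ± SE of the limma fit, n = 2 arrays a condition, limma adjusted p = 0.0097). Its CdCl2 changes were 0.72 labelled deletion and 1.01 labelled reference.

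Most AmB risers moved further on the arrays labelled reference. All 17 were above 0 under both labels, which a call made over both labels favours. The change was larger labelled reference in 16. The share over all tested genes was not computed, so this is not read as a trait of the set. AN9320 rose by 7.59 ± 1.44, with 4.48 labelled deletion and 10.7 labelled reference. AN5053 rose by 6.58 ± 1.17, with 4.09 and 9.08, AN8095 by 6.50 ± 1.10, with 4.17 and 8.83, and AN8956 by 6.46 ± 1.01, with 4.97 and 7.96. The AN8095 untreated signal labelled deletion was not above background, so its changes of 6.50 and 4.17 are not exact. AN8956 was among the 8 genes whose CdCl2 change was larger labelled deletion, at 1.92 against 0.75 labelled reference. Its levels labelled deletion were 4.96 with AmB, 1.91 with CdCl2, 2.46 with Congo Red and -0.01 untreated. Labelled reference AN8956 lay at 4.18 with AmB, -3.03 with CdCl2, -0.88 with Congo Red and -3.78 untreated, lower than labelled deletion on all 4 pairs.

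The 3 that fell with AmB were AN4068 at -2.56 ± 0.41, AN0901 at -1.92 ± 0.29 and bipA at -1.58 ± 0.32 (limma adjusted p = 0.0309, 0.0278 and 0.0455). AN4068 lay at -2.79 with AmB, -0.06 with CdCl2, -0.44 with Congo Red and -0.74 untreated labelled deletion. Labelled reference AN4068 was at -2.71 with AmB, 1.27 with CdCl2, -1.41 with Congo Red and 0.35 untreated, so both AmB arrays were below the rest. AN0901 was not above background on either AmB array. With its AmB signal labelled deletion raised to the faintest above background, AN0901 was 2.43-fold lower with AmB, a fold that is not exact. Its direction turned to 1.50 with normexp background correction. The bipA levels above were lowest with AmB under both labels, by 1.41 labelled deletion and 1.75 labelled reference below untreated. pdiA, at -1.78 ± 0.63, did not pass (limma adjusted p = 0.124).

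The AmB counts rest on few arrays. The number higher was 5 without the untreated array labelled reference. It was 33 when the AmB array labelled reference was left out and 35 when that labelled deletion was. The number lower was 0 without either untreated array, 1 without either CdCl2 array, 6 without the AmB array labelled reference and 9 without that labelled deletion. Without the untreated and CdCl2 arrays labelled deletion, and with no slide term, 15 passed as higher and 2 as lower, and bipA (adjusted p = 0.135) and AN0901 (adjusted p = 0.112) no longer passed in limma. Among the named genes, leaving out the untreated array labelled reference ended the limma calls of AN8095 (adjusted p = 0.0682), AN8956 (adjusted p = 0.0708) and AN4068 (adjusted p = 0.187). AN4068 was also lost without the untreated array labelled deletion (limma adjusted p = 0.0687). bipA and AN0901 were lost without any 1 of the untreated and CdCl2 arrays, at a limma adjusted p of 0.103 to 0.345 and 0.0672 to 0.207, and bipA with no slide term as well (0.111). Quantile normalization gave 15 higher and 6 lower among the 76, and 530 and 480 among all tested genes in place of 747 and 272. The AmB arrays were dim, with a 75th percentile of 261.9 to 335.6 against 1058 to 1881 on the others, and 27 of the 76 were not above background on the AmB array labelled deletion and 20 on that labelled reference. Of the 20 genes that passed, 17 were above background on both AmB arrays and 14 on all 8 arrays, 12 of them higher and 2 lower.

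For Congo Red, none (0) of the 76 passed in limma, where 0.0232% of all tested genes did. An unadjusted limma p under 0.05 was found for 4 of the 76 and for 262 of all 8636 tested genes. The smallest limma adjusted p among the 76 was 0.9998. The fitted change had a median of 0.32 over the 76, beside 0.00 over all tested genes, and was above 0 in 62, again against the untreated arrays that the rule used. On single arrays 14 reached 0.58 under both labels (3.94% of tested genes) and 0 lay at -0.58 or less (1.26%). The labels differed in sign in 32 of the 76, and the share over all tested genes was not computed. bipA was at 1.16 labelled deletion and -0.96 labelled reference, and pdiA at 0.74 and -0.71. The Congo Red array of each label was on another slide than the untreated one, in opposite order, so slide and label cannot be told apart in these single changes. Leaving out either AmB array, or both, brought 1 gene higher and 1 lower. Without the untreated and CdCl2 arrays labelled deletion, and with no slide term, the counts were 0 and 0.

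The AmB minus Congo Red difference is taken between 4 arrays that had no part in choosing the genes. The spread behind its p-values comes from the AmB pair and from the untreated and CdCl2 pairs that did, so the test is not free of the choice. It asked how the 76 differ between a membrane and a cell wall stress. In limma 7 were higher with AmB, or 9.21%, beside 5.93% of all tested genes, and 2 were lower, or 2.63%, beside 2.04%. In either direction 11.8% of the 76 and 7.97% of all tested genes passed, and these shares are near each other. The fitted difference had a median of 0.73 over the 76 and 0.00 over all tested genes, and was above 0 in 53.

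The 7 were AN3125, AN3207, AN5330, AN11090, AN2575 and, named to complete the count after their values were seen, AN1952 and AN9191. AN3125 was higher by 8.55 ± 0.44 (limma adjusted p = 0.0138). AN3207 lay at -3.11 with AmB, -6.29 with CdCl2, -7.47 with Congo Red and -7.91 untreated labelled deletion. Labelled reference AN3207 lay at 0.75 with AmB, -4.80 with CdCl2, -6.70 with Congo Red and -5.87 untreated. The AmB level of AN3207 was the highest under each label, and the difference from Congo Red was 5.90 ± 0.63. Its Congo Red and untreated signals labelled deletion were not above background, so this difference is not exact.

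AN5330 was at -0.70 with AmB, -3.59 with CdCl2, -3.55 with Congo Red and -5.08 untreated labelled deletion, and at 3.91, -0.65, -2.34 and -3.81 on the same conditions labelled reference. Under each label AmB was highest and untreated lowest, and AmB exceeded Congo Red by 4.55 ± 0.81. AN11090 was higher by 2.67 ± 0.41. AN2575 lay at -6.00 with AmB and -7.96 with Congo Red labelled deletion, and at -3.84 and -6.84 labelled reference. Of these signals only that with AmB labelled reference was above background, so no fold is given for AN2575. AN1952 was higher by 2.23 ± 0.40 and AN9191 by 1.79 ± 0.29.

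The lower pair was AN0901, 5.50-fold lower with AmB than with Congo Red, and bipA, at -1.68 ± 0.32 (limma adjusted p = 0.0191 and 0.0488). The AN0901 fold was taken from AmB signals not above background and is not exact. On single arrays bipA was -0.29 with AmB against 2.29 with Congo Red labelled deletion, and 0.75 against 1.54 labelled reference, so the AmB arrays did not overlap with the Congo Red arrays. AN0901 again turned, to 0.67, with normexp background correction. The bipA call was lost in limma with no slide term (adjusted p = 0.104) and without either untreated or either CdCl2 array (adjusted p = 0.0828 and 0.107). The count of genes higher was 18 without either untreated array, 22 without the AmB array labelled reference and 31 without that labelled deletion. The count lower was 1 without any 1 of the untreated and CdCl2 arrays, and 6 and 13 without those AmB arrays. Without the untreated and CdCl2 arrays labelled deletion and with no slide term it was 15 higher and 3 lower. Among all tested genes the split was 512 higher and 176 lower, against 425 and 336 with quantile normalization, 3365 and 383 with normexp, and 312 and 202 in the value table.

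**Figure D5:**
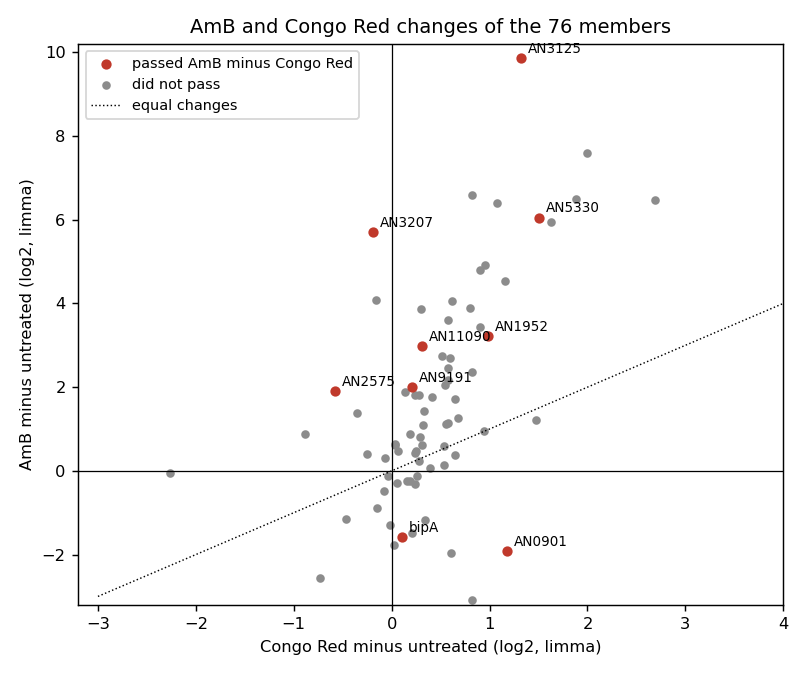
Fitted AmB minus untreated change (log2, y axis) against Congo Red minus untreated change (log2, x axis) of the 76 genes. Both axes share the untreated arrays. Red points passed AmB minus Congo Red in limma, and the dotted line marks equal changes. AN3125 stands highest at 9.86, and bipA and AN0901 are the red points below the line.

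Between the strain labels, 1 of the 76 passed in limma as higher labelled deletion and 1 as lower, or 2.63% together, beside 1.86% of all tested genes (1.01% higher and 0.857% lower). The fitted difference had a median of -0.35 over the 76 and -0.04 over all tested genes. Labelled deletion was lower on all 4 pairs of arrays in 23 of the 76 (16.8% of tested genes) and higher in 6 (14.5%). These directions are those of labels that the atfA probe goes against. The untreated and CdCl2 arrays that chose the genes enter both the difference and its spread, so this test is not free of the choice.

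AN3996 was higher labelled deletion by 2.98 ± 0.30 (limma adjusted p = 0.0287). It lay at -2.12 with AmB, 0.79 with CdCl2, -0.61 with Congo Red and -0.40 untreated labelled deletion. Labelled reference AN3996 lay at -4.84 with AmB, -2.40 with CdCl2, -3.32 with Congo Red and -4.21 untreated. On the AmB and Congo Red pairs alone, which had no part in choosing the genes, the differences were both 2.72, though its AmB signal labelled reference was not above background.

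AN1747 was lower labelled deletion by 1.69 on the log2 scale, at -1.69 ± 0.23 (limma adjusted p = 0.0483). Labelled deletion it lay at -0.38 with AmB, -0.19 with CdCl2, -0.59 with Congo Red and -0.95 untreated. Labelled reference AN1747 lay at 1.44 with AmB, 1.91 with CdCl2, 0.82 with Congo Red and 1.05 untreated. The labels did not overlap, and the AmB and Congo Red pairs alone differed by -1.82 and -1.41. In limma the AN1747 call was lost without any 1 of the untreated and CdCl2 arrays (adjusted p = 0.103 and 0.156). Without the untreated and CdCl2 arrays labelled deletion neither gene passed, at an adjusted p of 0.0643 for AN3996 and 0.232 for AN1747. The number lower labelled deletion was 18 without either AmB array, 2 without either untreated array and 0 without either CdCl2 array, and the number higher was 6 without either AmB array. Among all tested genes 87 were higher and 74 lower labelled deletion, against 37 and 70 by the value table's titles.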

How the data were processed

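Scanner files of 8 single-colour arrays came from Agilent Feature Extraction, version 12.0.3.1 according to the labels and processing notes. They hold a background-subtracted processed intensity per spot, per the file headers. The authors also deposited a value table on the log2 scale, with no normalization stated in any source used here and column medians of 9.24 to 9.26. Its treatment and strain titles disagree with the scanner files, as the report describes.

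The members and the gene lists were chosen with earlier results of these data known. Membership used all spots. For all other values, spots with an outlier flag (1.46% to 1.90% of an array) were left out, the log2 intensities were averaged over a probe's remaining spots, and arrays were set to their own 75th percentile. The arrays had 7691 to 8482 probes well above background. The 10550 probes stand for as many transcripts, of which 9697 matched a RefSeq locus tag (75 of the 76) and 776 had a symbol. Tests used limma 3.58.1 in R 4.3.3 (lmFit, eBayes) on the 8 arrays, with terms for strain label, for treatment and for slide, leaving 2 residual degrees of freedom, over 8636 probes above background on at least 2 arrays, with Benjamini-Hochberg adjustment at 0.05. The code was tested on simulated data. The slide was read from the scanner file names, and with this term the Congo Red pair has no residual, which leaves the spread to the other 3 pairs.

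Folds of a group whose arrays were all dark for a probe were taken against, per array, the higher of the faintest signal above background and the probe's own. They are lower bounds where the faintest signal was the higher, and measured folds where the probe's own was. Named were members with a symbol, the 10 largest mean CdCl2 changes, the 3 on each side of the threshold, up to 5 members a direction that passed each comparison, the 3 largest gaps to the value table under each title, and members of the lists. Alternatives were normexp background correction, quantile normalization, median scaling, the value table, outlier spots kept, other background filters, no slide term and each array left out. The mean signal was not among the columns used, so normexp (offset 50) took the median signal. Promoters and proteins were not analysed here.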

Additional observations from a re-analysis of the deposited data

Results flagged for a closer look

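Among named members whose treated and untreated signals were above background under both labels, 7 single-array changes with AmB or Congo Red had opposite signs under the strain labels, each with 1 array a condition, so the difference was not tested. With Congo Red, bipA stood at 1.16 labelled deletion and -0.96 labelled reference, and pdiA, the other ER folding gene, at 0.74 and -0.71. AN4068 stood at 0.30 labelled deletion and -1.76 labelled reference, and AN1747 at 0.36 and -0.23. AN2110 ran the other way, at -1.20 labelled deletion and 1.16 labelled reference, as did AN3996 at -0.20 and 0.88. With AmB, AN2432 stood at 0.61 labelled deletion and -0.45 labelled reference. The Congo Red and untreated arrays of a label lay on different slides, so slide and label cannot be told apart in these values.

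The value table gave opposite CdCl2 directions under its titles for the whole set. All 76 genes were above 0 in the columns titled deletion and all 76 below 0 in those titled reference, which was likewise not tested.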

How the results depend on the processing

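No pairing by replicate was possible because every strain label and condition had 1 array, so that replicate numbers pair nothing. The fits compare treatments within strain labels, which serve as the pair. Of the alternatives, the value table's titles, normexp and single arrays moved the results most, and the cause was not tested. The set of 76 numbered 33 with normexp (32 shared), 13 by the value table (0 shared), 22 at a threshold of 1 and 50 with background also met untreated. The median CdCl2 change labelled deletion was 0.57 with normexp and 0.94 with median scaling. Labelled reference it was 1.13 with normexp and 1.59 with quantile normalization. In the value table it was 1.12 in the columns titled deletion, which were most like arrays labelled reference. It was -0.65, and so reversed, in those titled reference, which were most like arrays labelled deletion. The lower of the CdCl2 changes was reversed in the value table for AN2576 (-1.35), AN3563 (-0.93), AN2110 (-1.60), AN8342 (-0.40), AN9372 (-1.08), AN3883 (-0.42), AN2558 (-0.60), AN8597 (-1.85), AN11090 (-1.13), AN6936 (-0.66), bipA (-0.88) and pdiA (-0.69), and with normexp for AN8342 (-0.055) and AN3883 (-0.037). Normexp also reversed AN0901 for AmB minus untreated (1.50) and AmB minus Congo Red (0.67), and the value table's titles reversed AN3996 (-2.44) and AN1747 (1.63) between the labels.

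AmB minus untreated called 56 members higher with normexp, 4 in the value table and 27 with no filter or no slide term, and 6 lower with quantile normalization and 1 in the value table. With 1 array left out it called 5 to 35 higher and 0 to 9 lower. Congo Red called 0 to 1 in each direction with 1 array left out, and 1 and 1 without both AmB arrays. AmB minus Congo Red called 55 higher with normexp, 1 in the value table, 20 with no filter, 17 with no slide term and 15 without the untreated and CdCl2 arrays labelled deletion, a setting chosen after seeing the data. It called 4 lower with quantile normalization, 0 in the value table, 1 among probes bright on all 8 arrays and 6 with no filter. With 1 array left out these were 9 to 31 higher and 1 to 13 lower. Between labels, the number higher labelled deletion was 0 in the value table, among probes bright on all 8 arrays and in the added setting, 2 with no slide term, and 1 to 6 with 1 array left out. The number lower was 0 with quantile normalization, in the value table, with no filter and in the added setting, 8 with no slide term, and 0 to 18 with 1 array left out.

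All genes called for AmB numbered 1019, against 3996 with normexp, 3319 with no filter, 1991 with no slide term, 441 in the added setting and 138 to 4427 with 1 array left out. For CdCl2 the count was 0 under every setting run. Quantile normalization moved the median AmB change of all tested genes to -0.27 and normexp to 0.69. Either Congo Red array could not be left out, since the slide term could then not be estimated. Weak signals limit the values of the 34 members not bright on all 8 arrays.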
